A study of Mus musculus with 10 samples.

Results

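Alveolar type 1 (AT1) cells are the thin, flat epithelial cells that cover most of the surface of the lung's air sacs, and 9 of the 10 genes listed here as their markers were measured by at least 1 probe and were lower in squamous cell carcinoma (SCC) than in wild-type (WT) lung. The genes were Ager, Hopx, Pdpn, Rtkn2, Akap5, Clic5, Emp2, Cav1, Cav2 and Igfbp2. A gene was found by pairing the accession of each probe with a gene symbol, and where several probes matched, the one with the highest mean over the 10 columns of the authors' matrix stood for the gene. The 9 genes were taken from 19092 genes with a probe. Rtkn2 was matched by no probe and is not analysed here.

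The samples were 5 whole lungs labelled wild type and 5 lung tumors labelled SCC, with 1 single-colour Agilent array for each sample. All came from untreated mice at 13 months of age, of a strain that the labels spell B6.129. Both groups carried the floxed Lkb1 (Stk11) alleles: WT mice were Lkb1f/f with no Cre, and SCC came from CCSPiCreLkb1f/f mice, in which the iCre recombinase is driven by the promoter of the club cell secretory protein gene, so that Lkb1, a kinase gene and tumour suppressor, is deleted in airway epithelium. The tumors are tissue samples that can hold lung next to the carcinoma, and the WT samples are the whole organ. Lkb1 itself had no paired probe and is not analysed here. Nothing in the labels says how many animals gave the replicates, so p-values measure the spread between these samples.

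AT1 cells and the capillary endothelium beneath them form the barrier across which oxygen passes. Their cuboidal neighbours, the alveolar type 2 cells, make surfactant and can divide and flatten into new AT1 cells. AT1 cells are rich in caveolae, small pits of the cell membrane coated by caveolins, and in adhesion, matrix and ion transport proteins. Several AT1 genes have other sources. Pdpn is known in basal squamous cells, lymphatic vessels and mesothelium, Hopx and Cav1 are also expressed in stratified squamous epithelium, and caveolins are abundant in endothelium, fibroblasts and fat.

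The arrays did not all look alike. SCC replicate 5 had 90.2% of its probes well above background, against 71.0% to 74.3% on the other 9 arrays. SCC replicate 2 correlated with the WT arrays at r = 0.940 to 0.946 across tested probes, whereas the other SCC arrays reached at most 0.905. Xist was at 2.27 to 4.33 on WT replicates 2 and 3 and SCC replicate 2, which carried the Y-linked Ddx3y at 10.91 to 11.53, whereas SCC replicate 5 had both, with Xist at 13.75 and Ddx3y at 8.34. Of the 3 slides, slide 1 carried WT replicates 1 to 4, slide 3 carried SCC replicates 4 and 5, and the middle slide mixed WT replicate 5 with SCC replicates 1 to 3. With SCC replicates 2 and 5 left out, all 9 genes were still called lower, as they were on the 6 arrays with Xist and without Y-linked signal.

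All 9 measured genes were called lower in SCC, where a call asked for a limma adjusted p under 0.05 and a change of 2-fold or more, and none was called higher. Over all 15582 tested genes, each represented by its brightest probe, 13.4% were called lower and 11.6% higher. The differences ran from -1.30 for Pdpn to -2.53 for Akap5 on the log2 scale, with a median of -2.02, while the median over all tested genes was -0.04. The 5 SCC arrays lay below the 5 WT arrays for each of the 9 genes, which held for 22.5% of all tested genes. Groups that do not overlap always give 0.00794 in an exact permutation test of the 10 arrays (two-sided), the smallest p that 5 against 5 allows. That p, found for each of the 9 genes, therefore adds nothing to the separation. Each gene was well above background on all 10 arrays, so signal from these genes remained in every tumor. In whole tissue, fewer AT1 cells and less RNA per cell cannot be told apart.

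**Figure D1:**
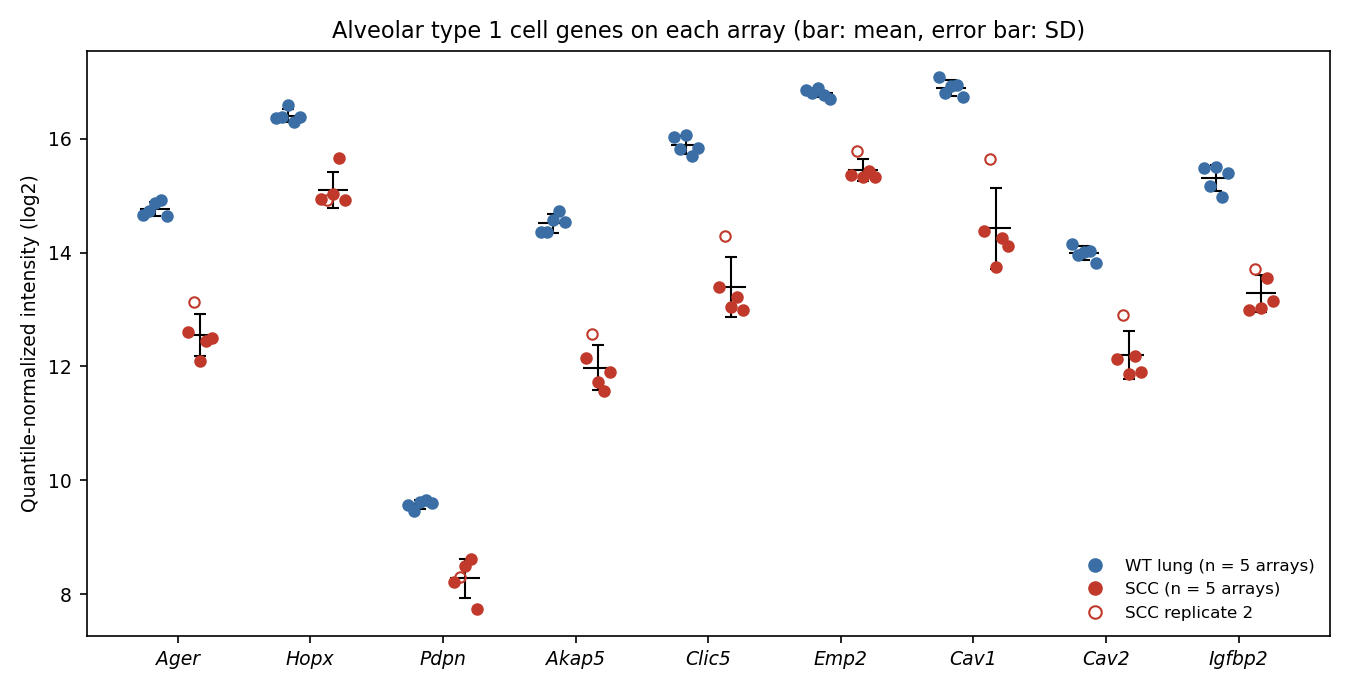
Quantile-normalized intensity on the log2 scale (vertical axis) of the 9 measured alveolar type 1 cell genes (horizontal axis) on each WT array (blue) and each SCC array (red), with SCC replicate 2 as an open circle, group means as bars and SD as error bars. In every gene all SCC points sit below all WT points, from -1.30 between the means of Pdpn to -2.53 between those of Akap5, and heights are not comparable between genes because each has its own probe.

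Ager encodes RAGE, a membrane receptor that in healthy lung is concentrated on the basal side of AT1 cells. Its normalized intensity, on the log2 scale used throughout, was 14.66, 14.73, 14.87, 14.93 and 14.64 on WT replicates 1 to 5 and 12.60, 13.13, 12.09, 12.45 and 12.51 on SCC replicates 1 to 5. The groups were well separated, and SCC replicate 2 was the highest tumor. The mean fell from 14.77 ± 0.13 to 12.56 ± 0.37 (SD, n = 5 each). The difference was -2.21, with an SE of 0.17 and a limma adjusted p of 1.27e-05. The mean in SCC corresponded to 21.6% of that in WT.

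Akap5, Clic5 and Cav1 had the largest differences, close to each other. Akap5 encodes a scaffold protein that anchors protein kinase A near the cell membrane. It was at 14.36, 14.35, 14.58, 14.73 and 14.53 on the WT arrays in replicate order, and at 12.15, 12.56, 11.73, 11.57 and 11.90 on the SCC arrays. Even its highest tumor, SCC replicate 2, lay well under the lowest WT array. The difference was -2.53 (SE 0.18, adjusted p = 8.66e-06), so that 17.3% of the WT level remained. Clic5 encodes a chloride intracellular channel family protein that associates with the actin skeleton. Its WT arrays stood at 16.03, 15.81, 16.06, 15.70 and 15.84, and its SCC arrays at 13.39, 14.29, 13.05, 13.22 and 12.99. Apart from SCC replicate 2 the tumors were close together. Clic5 fell by 2.50 (SE 0.23, adjusted p = 3.13e-05), and its dimmer probe fell by 1.98.

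Cav1 and Cav2 encode caveolins, and their products form the coat of caveolae together. Cav1 was at 17.08, 16.80, 16.92, 16.95 and 16.73 on the WT arrays and at 14.38, 15.64, 13.75, 14.26 and 14.12 on the SCC arrays. SCC replicate 2 stood high among the tumors and SCC replicate 3 low, so the spread in SCC (SD 0.72, n = 5) was the widest of the 9 genes. The difference of Cav1 was -2.47 (SE 0.30, adjusted p = 0.000146). With slide fitted as a block this call was lost (-2.14, limma adjusted p = 0.0512), a fit that rests on slide 2 with its single WT array. Cav2 was at 14.15, 13.96, 14.01, 14.02 and 13.83 in WT and at 12.14, 12.91, 11.87, 12.19 and 11.90 in SCC. Here too SCC replicate 2 was the highest tumor. Cav2 fell by 1.79 (SE 0.19, adjusted p = 6.11e-05), and the second probes of Cav1 and Cav2 gave -2.68 and -1.84.

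Igfbp2 encodes a secreted binding protein for insulin-like growth factors and marks mature AT1 cells. Its level was 15.48, 15.17, 15.50, 14.97 and 15.39 on the WT arrays and 12.98, 13.72, 13.02, 13.55 and 13.15 on the SCC arrays. SCC replicates 2 and 4 were the 2 highest tumors, and no tumor reached the WT range. The difference was -2.02 (SE 0.17, adjusted p = 2.17e-05), leaving 24.6% of the WT level.

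The smallest differences were those of Pdpn, Hopx and Emp2. Hopx encodes a small homeodomain protein that does not bind DNA itself. It was at 16.36, 16.39, 16.60, 16.29 and 16.39 in WT and at 14.94, 14.93, 15.03, 15.66 and 14.93 in SCC. SCC replicate 4 stood apart from the other tumors, which lay close together. Hopx fell by 1.31 (SE 0.15, adjusted p = 0.000108). Pdpn encodes podoplanin, a mucin-type membrane glycoprotein also known as T1-alpha. Its values were 9.56, 9.45, 9.62, 9.66 and 9.60 in WT and 8.22, 8.30, 8.50, 8.62 and 7.74 in SCC, with SCC replicate 5 the lowest. Pdpn fell by 1.30 (SE 0.16, adjusted p = 0.000128), its other probe fell by 1.36, and under another background correction (normexp) the difference was -0.997, under the 2-fold requirement. Emp2 encodes a tetraspan membrane protein of the PMP22 family. Its values were 16.86, 16.81, 16.90, 16.77 and 16.70 in WT and 15.36, 15.79, 15.33, 15.43 and 15.33 in SCC. All tumors but SCC replicate 2 were nearly equal. Emp2 fell by 1.36 (SE 0.11, adjusted p = 1.36e-05), and 38.9%, 40.4% and 40.6% of the WT level remained for Emp2, Hopx and Pdpn.

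Within slide 2, which holds the only WT array that shared a slide with tumors, all 9 genes were lower on SCC replicates 1 to 3 than on WT replicate 5. The differences of the means there ran from -1.21 for Emp2 to -2.39 for Akap5, with -2.04 for Ager, -1.43 for Hopx and -1.26 for Pdpn. The fit with slide as a fixed block gives the same differences, with limma adjusted p-values from 0.00701 for Akap5 to 0.0381 for Pdpn in 8 of the genes and 0.0512 for Cav1, and it assumes that the lone WT array varies like the others.

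Next, the genes were compared with each other within arrays, to ask whether the AT1 genes fell by equal amounts. The change of a log2 ratio of 2 probes between WT and SCC was tested with an exact two-sided permutation test, and p-values were adjusted over the 8 pairs compared. Set to 0 at the WT mean, the ratio of Ager to Hopx was -0.69, -0.16, -1.29, -1.57 and -0.79 on the SCC arrays, all below the lowest WT array at -0.11. That array was WT replicate 5, on the slide of SCC replicates 1 to 3, and SCC replicate 2 lay close to it. The ratios were not tested with slide as a block. On these probes Ager fell further than Hopx, by 0.90 on the log2 scale (SE 0.26, exact adjusted p = 0.0127). Ager also fell further than Pdpn, by 0.91 (SE 0.25), and further than Emp2, by 0.85 (SE 0.12), each with an exact adjusted p of 0.0127. For Ager against Igfbp2 the change of the ratio was -0.19 (SE 0.19, exact adjusted p = 0.357), or -0.06 without WT replicate 4 and -0.10 without SCC replicate 4, and for Ager against Cav1 it was 0.26 (SE 0.18, exact adjusted p = 0.245), or 0.12 with the 75th percentile scaling. The test for Cav1 turned on 1 tumor. The ratio of Ager to Cav1 was -0.38 on SCC replicate 2 and 0.32 to 0.52 on the remaining tumors, and without SCC replicate 2 the change was 0.42 (unadjusted exact p = 0.00794).

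**Figure D2:**
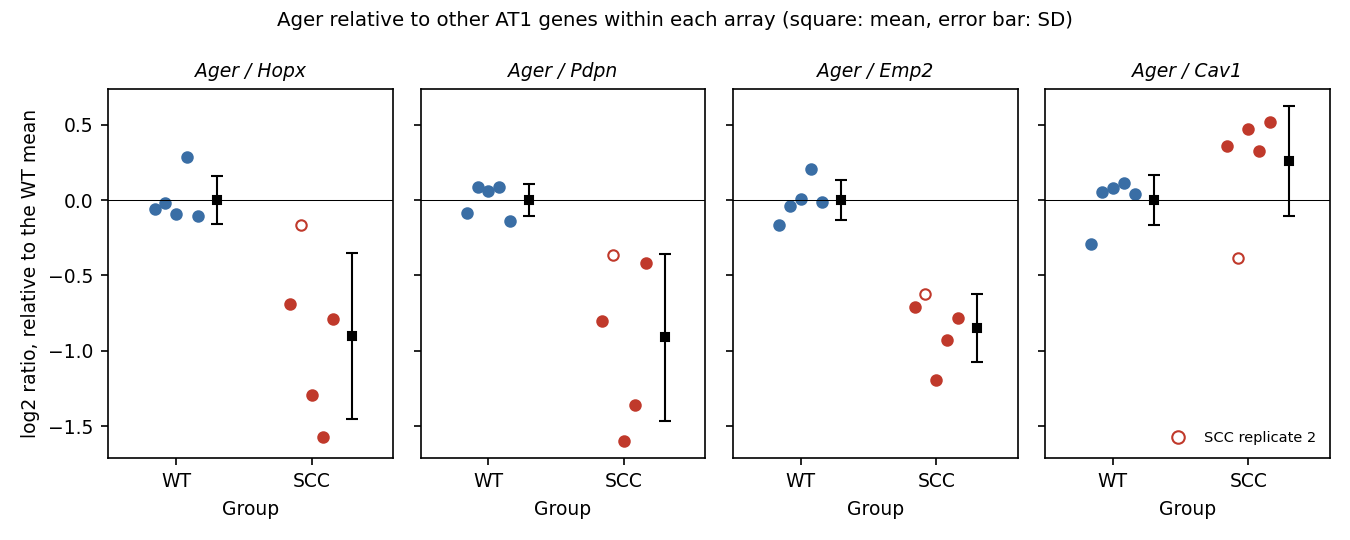
Log2 ratio of Ager to Hopx, Pdpn, Emp2 and Cav1 within each array (vertical axis, set to 0 at the WT mean) in WT (blue) and SCC (red, SCC replicate 2 open), with group means as squares and SD as error bars. The ratio to Hopx, Pdpn and Emp2 was lower on all SCC arrays than on all WT arrays, whereas the ratio to Cav1 was raised on 4 SCC arrays and lowered on SCC replicate 2.

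Cav1 fell further than Cav2, its partner in the caveolar coat, by 0.68 (SE 0.14, exact adjusted p = 0.0127). The ratio of Cav1 to Cav2 differed by at most 0.06 from its mean on the WT arrays, and with the WT mean set to 0 it was -0.18 on SCC replicate 2 and from -0.66 down to -1.02 in the remaining tumors. Cav1 also fell further than Pecam1, a defining gene of endothelium, by 0.87 (SE 0.22, exact adjusted p = 0.0212), but this ratio overlapped between groups, since SCC replicate 2 lay at -0.09 and WT replicate 2 at -0.13. Pecam1, at -1.60, fell less than most of its list: the median of 14 blood endothelial genes was -2.33. Tek (-2.89), Ramp2 (-2.85) and Kdr (-2.76), named because they were the most lowered of that list, had larger differences than Cav1. The largest change among the 8 ratios was that of Ager to Sftpc, the surfactant protein C gene that defines alveolar type 2 cells. The ratio of Ager to Sftpc was between -1.64 and -2.46 on the SCC arrays and fell by 2.05 (SE 0.15, exact adjusted p = 0.0127). Quantile normalization held Sftpc at the top of the scale, 18.80 on all WT arrays, and with each array scaled to its 75th percentile instead the change was -2.10. Sftpc, at -0.16, was among the least lowered of its list, in which the median of 9 alveolar type 2 genes was -0.74.

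Cav1 and Cav2 lie next to each other on chromosome 6, and the bases around their starts are shown with those of Ager and Hopx because the 2 caveolin genes moved together but unequally, Ager is the receptor gene that defines the list, and Hopx is among the genes that fell least. RefSeq promoter windows of assembly GRCm38.p6 hold 250 bases before and 50 after a start, and 9 of the 10 genes had at least 1. Each window was searched on both strands for GGAATG (TEAD), CTTGAG (NKX2-1), TGANTCA (AP-1), GGGCGG (GC box), TATAAA (the TATA motif) and GATAAG (the motif of GATA factors), which are shown in capitals. Overlapping matches of the GC box were all kept, and in 1 window of Igfbp2 a CTTGAG overlaps a TGANTCA.
Ager, chr17:34597600-34597899, plus strand: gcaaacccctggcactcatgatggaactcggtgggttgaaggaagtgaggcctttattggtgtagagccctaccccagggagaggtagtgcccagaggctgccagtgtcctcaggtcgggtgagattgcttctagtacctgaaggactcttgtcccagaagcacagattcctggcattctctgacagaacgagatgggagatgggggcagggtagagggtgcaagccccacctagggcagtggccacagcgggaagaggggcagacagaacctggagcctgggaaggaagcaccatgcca
Hopx, chr5:77115074-77115373, minus strand: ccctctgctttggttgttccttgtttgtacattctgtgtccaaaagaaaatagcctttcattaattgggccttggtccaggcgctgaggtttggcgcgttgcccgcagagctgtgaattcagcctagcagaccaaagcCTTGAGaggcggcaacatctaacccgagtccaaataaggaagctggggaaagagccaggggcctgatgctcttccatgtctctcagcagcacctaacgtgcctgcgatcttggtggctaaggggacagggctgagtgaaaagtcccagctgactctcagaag
Cav2, chr6:17280935-17281234, plus strand: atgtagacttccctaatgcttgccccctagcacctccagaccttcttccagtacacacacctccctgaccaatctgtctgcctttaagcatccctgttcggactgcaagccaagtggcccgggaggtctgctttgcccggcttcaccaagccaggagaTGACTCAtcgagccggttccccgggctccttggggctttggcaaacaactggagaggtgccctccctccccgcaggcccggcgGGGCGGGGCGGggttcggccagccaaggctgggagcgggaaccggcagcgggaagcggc
Cav1, chr6:17306085-17306384, plus strand: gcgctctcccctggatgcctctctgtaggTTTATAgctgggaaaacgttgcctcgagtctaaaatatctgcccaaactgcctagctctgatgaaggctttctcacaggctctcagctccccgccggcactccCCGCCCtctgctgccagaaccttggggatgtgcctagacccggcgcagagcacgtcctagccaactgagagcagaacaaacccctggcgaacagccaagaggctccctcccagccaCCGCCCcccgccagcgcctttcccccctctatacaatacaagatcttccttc
The Ager window held none of the 6 motifs, and the Hopx windows held CTTGAG only. GGGCGG occurred in 7 of the 12 windows, 1 window each of Akap5, Cav1, Cav2, Clic5, Emp2, Igfbp2 and Pdpn, and in 35.7% of all 32851 windows. CTTGAG occurred in both windows of Hopx and 1 of Igfbp2, and in 15.9% of all windows. TGANTCA occurred in 1 window each of Cav2 and Igfbp2, against 7.81% of all windows. TATAAA was found in 1 window of Cav1, near its far upstream end, and in 13.6% of all windows. GGAATG and GATAAG were in none of the 12 windows, and in 14.7% and 7.44% of all windows. A match to these letters describes the sequence and is not a binding site.

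The tumors differed in how far the AT1 genes had fallen. The median distance of the 9 genes from their WT means was -2.16 on SCC replicate 1, -1.48 on SCC replicate 2, -2.29 on SCC replicate 3, -1.80 on SCC replicate 4 and -2.16 on SCC replicate 5. SCC replicate 2 was the highest tumor for 7 of the 9 genes. The exceptions were Hopx, lowest there by a small margin, and Pdpn, and for both SCC replicate 4 was the highest. SCC replicate 3 was the lowest tumor for 4 genes, Ager, Emp2, Cav1 and Cav2, though for Emp2 it was level with SCC replicate 5.

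**Figure D3:**
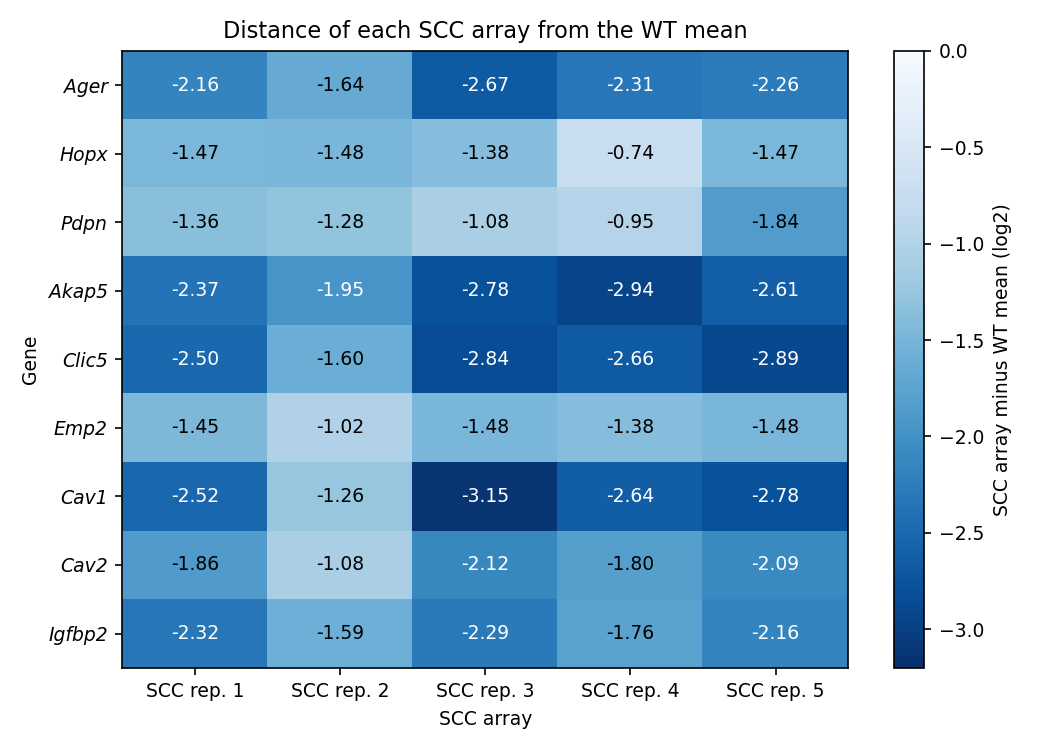
Distance of each SCC array (horizontal axis) from the WT mean, on the log2 scale, for the 9 genes (vertical axis), printed in each cell with darker shading for lower values. The column of SCC replicate 2 is the palest for Ager, Akap5, Clic5, Emp2, Cav1, Cav2 and Igfbp2, and the rows of Hopx and Pdpn are palest at SCC replicate 4.

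Other cell types differed between these arrays as well. The mean level over 14 squamous marker genes was 11.06 on SCC replicate 2 and 14.03 to 14.32 on the other tumors, against 5.62 to 6.07 in WT, where 5 of these genes were above background on no array. The mean over 14 blood endothelial genes was 12.42 on SCC replicate 2, 11.35 to 11.67 on the other tumors and 13.78 to 13.93 in WT. SCC replicate 2 was also the only tumor with Y-linked signal and without Xist. The part of tissue makeup and of sex in the levels of the AT1 genes was not tested.

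After the group means were subtracted, the arrays showed which genes rose and fell with Ager inside the groups. Over the 10 arrays Pearson's r with Ager was 0.91 for Cav1, 0.85 for Akap5, 0.85 for Cav2, 0.80 for Clic5, 0.79 for Emp2 and 0.43 for Igfbp2, but -0.15 for Pdpn and -0.21 for Hopx. These are descriptions over 5 arrays of each group that share slides and tissue makeup, and SCC replicates 2 and 3 lay farthest from the mean of their group for Ager. Among 14105 genes above background on all arrays, the 5 with the highest r were Grap (0.985), Limch1 (0.971), Ackr2 (0.970), Dusp12 (0.970) and Sh2d1b1 (0.965). Without that subtraction, r over the 10 arrays mostly reflects the gap between the groups, and the 5 highest were Grap, Acvrl1, Gng11, Ackr2 and Kdr, all between 0.997 and 0.998. Kdr encodes a receptor for vascular endothelial growth factor and Acvrl1 a receptor of the TGF-beta family, both typical of endothelium.

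A longer list of other AT1 genes was then examined. Of 24 genes, 23 were tested, of which 15 were called lower, none higher and 8 not called, with a median difference of -1.54. Limch1, an actin-associated protein gene, fell by 2.90 (SE 0.37, adjusted p = 0.000177), and its dimmer probes fell by 1.85 and 1.79. Col4a3, a basement membrane collagen chain, fell by 2.44 (SE 0.30), Scnn1g, the gamma subunit of the epithelial sodium channel, fell by 2.42 (SE 0.28), and Bdnf, a neurotrophin, fell by 2.41 (SE 0.18). The groups did not overlap for any of these 4 genes. The growth factor gene Vegfa, which AT1 cells make next to capillaries and which is named here after its values were seen, fell by 2.01 (SE 0.22).

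Not every gene of the AT1 list was lower. Aqp5, the water channel of AT1 cells, was at 16.05 in WT and 16.69 in SCC, a difference of 0.64 (SE 0.19, adjusted p = 0.0233, overlapping groups, 1 WT array without a value), Krt7, a simple epithelial keratin gene, differed by 0.76 (SE 0.15, adjusted p = 0.00287, overlapping groups) and the annexin gene Anxa3 by 0.30 (SE 0.09, adjusted p = 0.0166). These 3 genes, singled out after their values were seen, passed the adjusted p, as 25.4% of all tested genes did in that direction, and stayed under the 2-fold requirement, although the dimmer probe of Krt7 was called higher at 1.17. With the 75th percentile scaling 1 of the 23 genes was called higher. With slide as a fixed block 9 of the 23 were called lower.

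**Figure D4:**
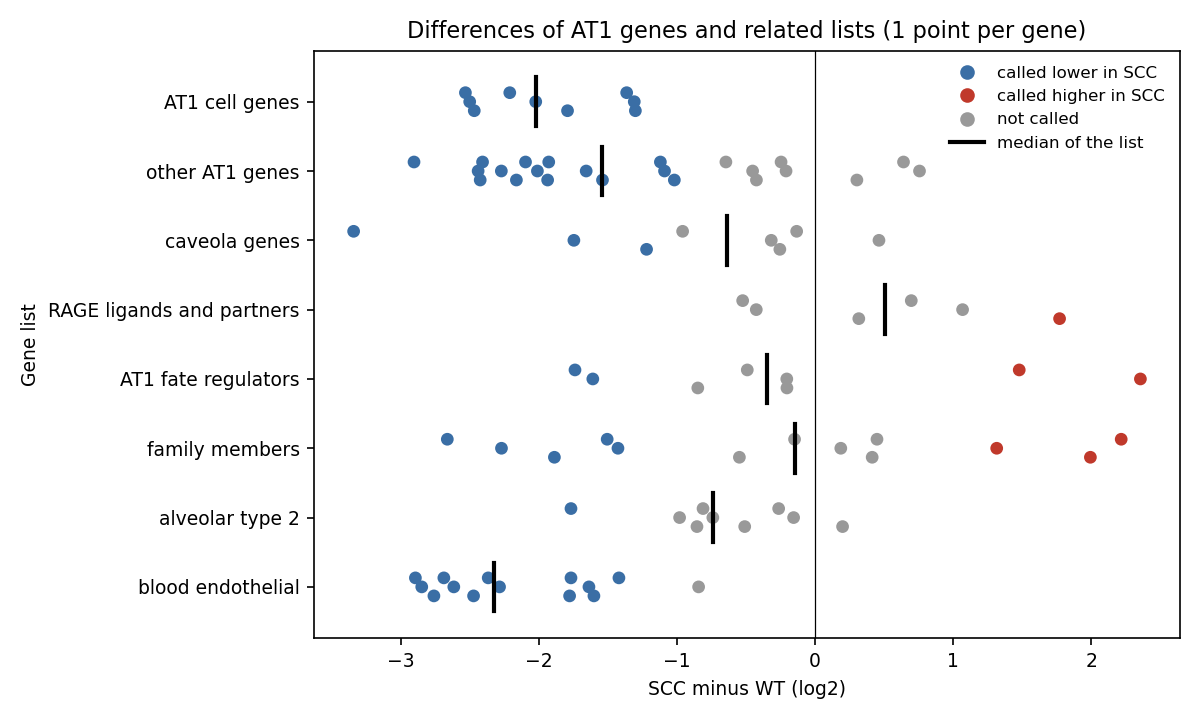
SCC minus WT difference on the log2 scale (horizontal axis) of each tested gene (1 point, blue if called lower, red if called higher, grey if not called) in 8 lists (vertical axis), with the median of each list as a black bar. The 9 AT1 cell genes lie between -2.53 and -1.30, the other AT1 genes extend from -2.90 to 0.76, and the alveolar type 2 genes center on -0.74.

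The coat of caveolae includes cavins beside caveolins. Of 8 coat and accessory genes tested, 3 were called lower and none higher, with a median of -0.64. Cavin2 fell by 3.34 (SE 0.42, adjusted p = 0.000164), Cavin1 by 1.75 (SE 0.16, adjusted p = 2.69e-05) and the ATPase gene Ehd2 by 1.22 (SE 0.14), though a second Ehd2 probe gave -0.43 and was not called. With slide as a fixed block 2 of the 8 were called lower. The muscle caveolin gene Cav3 was at -0.96 (SE 0.20) and under the 2-fold requirement. Of 6 tested ligands and partners of RAGE, none was called lower and 1, S100a8, was called higher at 1.77 (SE 0.59, adjusted p = 0.0321). S100a8, a neutrophil protein gene named after its values were seen, overlapped between groups, with 11.10 to 14.40 in SCC and 11.23 to 12.35 in WT, and the call was lost when any one of WT replicates 2, 3 and 5 or SCC replicates 1, 3, 4 and 5 was left out. It was also lost with slide as a fixed block and with the replicate number as a block.

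Regulators of alveolar cell fate did not move together. Of 8 tested, 2 were called lower, 2 higher and 4 not called, with a median of -0.35. Tead1, the DNA-binding partner of YAP and TAZ, fell by 1.74 (SE 0.19, adjusted p = 7.88e-05), although both of its other probes gave -0.75 and were not called. Klf5 rose by 2.35 (SE 0.11, adjusted p = 1.17e-06), from 10.72 ± 0.18 to 13.07 ± 0.15 (SD, n = 5 each), and Foxa1, a pioneer factor of endoderm, rose by 1.48 (SE 0.22, adjusted p = 0.00043). Yap1 differed by -0.49 (SE 0.15) and Nkx2-1, the lung lineage factor, by -0.21 (SE 0.08), and neither was called. Gata6, the other gene called lower, overlapped between groups and differed by -1.61 (SE 0.36). With slide as a fixed block 1 of the 8 was called lower and 1 higher.

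Relatives of the AT1 genes went both ways. Of 13 family members tested, 5 were called lower, 3 higher and 5 not called, with a median of -0.15. In the family of Emp2, Pmp22 fell by 2.66 (SE 0.23), while Emp1 was called higher at 1.99 (SE 0.53) with overlapping groups. Among relatives of Clic5, Clic3 fell by 1.51 (SE 0.10) and Clic6 rose by 1.31 (SE 0.30). Among relatives of Igfbp2, Igfbp5 fell by 2.27 (SE 0.27) and Igfbp3 rose by 2.22 (SE 0.20). Akap12, a relative of Akap5, fell by 1.89 (SE 0.23). With slide as a fixed block 1 of the 13 was called higher.

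Markers of other cell types that use some of the same genes were followed alongside. Of 9 alveolar type 2 genes, 1 was called lower (Etv5, at -1.77) and none higher, and the mean level of the list was 14.59 to 14.74 in WT and 13.77 to 14.47 in SCC. Of 14 blood endothelial genes, 13 were called lower, with a median of -2.33. Of 5 tested lymphatic genes, 3 were lower (mean level 11.08 to 11.21 in WT and 9.71 to 10.57 in SCC), and Prox1, which defines lymphatic vessels, was above background on no WT array. Of 5 mesothelial genes, 4 were lower (10.36 to 10.82 against 5.40 to 7.78), and of 12 fibroblast genes 6 were lower (13.24 to 13.49 against 11.77 to 12.89). The mesothelial level in SCC is partly set by background, since Lrrn4 was above it on 4 SCC arrays, Upk3b on 3 and Wt1 on 1. Of 8 cardiac muscle genes 7 were lower, with WT arrays spread from 10.29 to 14.14 and tumors from 7.58 to 10.28, and all 4 tested fat cell genes were lower (6.92 to 9.48 against 4.89 to 6.30). The same limit holds for these lists: the cardiac gene Sln was above background on 3 SCC arrays and the fat cell genes Adipoq on 2 and Retn on 1. Of 6 club cell genes 3 were lower and 1 higher (15.13 to 16.24 against 14.80 to 16.91), and of 14 squamous genes 13 were higher. The part of these cell types in the differences of Cav1, Cav2, Pdpn and the other AT1 genes was not tested.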

How the data were processed

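Total RNA of 5 WT lungs and 5 SCC was hybridised to single-colour Agilent arrays, 1 per sample. The titles gave each sample's group and number. Per the labels, the arrays were read with Agilent Feature Extraction 12. For each spot the deposited scanner files hold a background-subtracted processed intensity, on a linear scale, with its median signal, its median local background and quality flags. A matrix of log2 values was deposited too, quantile-normalized per their methods, which correlated at r of at least 0.99995 with the values computed here on every array. It served to choose the probe of a gene and as an alternative.

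Spots that were controls or carried an outlier flag were dropped, log2 processed intensities of a probe's spots were averaged, and 41174 probes were quantile-normalized. A probe was tested if it was well above background on at least 4 of 5 arrays of a group, which left 30374. limma 3.58.1 in R 4.3.3 fitted SCC minus WT without covariates, with Benjamini-Hochberg adjustment over these probes. A call needed both an adjusted p under 0.05 and a 2-fold change. Accessions were paired with symbols through RefSeq genes of GRCm38.p6 (28215 probes, 19092 genes), and array coordinates, which use another build, are not given. The number of arrays limits the precision. On simulated data with 200 of 30374 probes changed by 2 log2 units, 159 were recovered, with 7 false calls. The simulation gave both groups equal spread and changed far fewer probes than were called here. Its figures therefore check the procedure and are not error rates of these data. The genes and lists were chosen with earlier results of these data known. Beyond the list genes, the named genes were at most 4 lower and 4 higher a list, called, not overlapping and ranked by size. Vegfa, Aqp5, Krt7, Anxa3, Cav3, S100a8, Gata6, Yap1, Nkx2-1, Emp1, Prox1, Sln, Adipoq and Retn fall outside this rule and were chosen after their values were seen. Alternatives covered the authors' matrix, scaling, background correction, filters, slide and replicate blocks, array weights, Student's t-test, other probes and left-out arrays. The t-test was read at an unadjusted p of 0.01, a level chosen here, and after Benjamini-Hochberg adjustment. For the arrays the paper's methods name a one-way ANOVA. The scaling of gene pairs and the 6 arrays with Xist and without Y-linked signal were added after seeing the data.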

Additional observations from a re-analysis of the deposited data

Results flagged for a closer look

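Each gene's 5 values in a group were examined for 1 array far from the other 4, in 18 groups, and 2 had such a gap, where chance alone flags about 1 group in 20. Hopx was at 15.66 on SCC replicate 4, against 15.03 on the nearest and 14.93 on the farthest of the other tumors, a gap of 0.867 of the whole range against a critical value of 0.71. Emp2 was at 15.79 on SCC replicate 2, against 15.43 on the nearest and 15.33 on the farthest, a gap of 0.785 of the range. Both values lay below all WT values of the gene, and both genes were called lower without the array concerned.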

How the results depend on the processing

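The 9 genes were called lower under all alternatives run but 2, each of which left 8: normexp, where Pdpn (-0.997) missed the 2-fold requirement, and slide as a fixed block, where Cav1 (-2.14) had an adjusted p of 0.0512. None was called higher under any alternative run and none changed direction. Leaving out single arrays gave -2.36 to -2.08 for Ager, -1.45 to -1.26 for Hopx and -2.78 to -2.29 for Cav1. With the replicate number as a block, 9 genes remained lower and 6571 probes were called. Same-numbered arrays did not deviate together (r of -0.10 to 0.01). That gave no sign of pairing by number but cannot exclude it. Of all probes, 6954 were called (3940 lower, 3014 higher), 3969 with normexp (2060 and 1909), 2989 with slide as a fixed block (1587 and 1402), 14878 at the adjusted p alone (8088 and 6790) and 6356 to 8122 without 1 array. The 75th percentile scaling moved the median of all probes from -0.09 to 0.03 and the split to 3080 lower and 3504 higher. Slide 2 alone holds both groups, with 1 WT array, so slide and group are largely confounded.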
